A study of Mus musculus with 6 samples.

Results

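Pericytes and vascular smooth muscle cells, together called mural cells, were followed through 10 genes that mark them: *Pdgfrb*, *Notch3*, *Rgs5*, *Abcc9*, *Anpep*, *Vtn*, *Higd1b*, *Acta2*, *Tagln* and *Myh11*. The genes were chosen by name from the 55492 genes in the expression table, with earlier results of these data known. All 10 of 10 passed the filter on low values (a mean TPM of at least 0.5 over all samples). The RNA came from whole brains of mice at postnatal day 16 (P16), 3 wild-type (WT) and 3 *Npc1*-/-, which were not treated. *Npc1* encodes the cholesterol transporter of late endosomes and lysosomes that is defective in Niemann-Pick disease type C, and the *Npc1*-/- mice carried the nih null allele in every cell, as F1 hybrids of the BALB/cJ and C57BL6/J backgrounds. Each brain was dissociated and cells bearing O4, a surface lipid of late oligodendrocyte progenitors and immature oligodendrocytes, were drawn out with magnetic microbeads, so that each mouse gave 1 library. Mural cells were not selected for. The question asked here is how the level of their transcripts in this purified fraction differed between the genotypes.

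Pericytes sit on the wall of capillaries and share a basement membrane with the endothelium, while smooth muscle cells wrap arterioles and larger vessels and set their bore. During development endothelial cells secrete PDGF-BB, which recruits and maintains mural cells through the receptor PDGFRβ, and endothelial Notch ligands act on NOTCH3 in mural cells. In the brain, pericytes are needed for the barrier properties of the vessels.

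Levels are given as scaled TPM, which is TPM (a transcript abundance per length, scaled to the same total in each library) divided by a size factor per library. The libraries held between 40250000 and 50250000 fragments, as read from the steps between low values, and size factors ran from 0.727 to 1.295. *Npc1* itself lay between 41.1 and 45.5 scaled TPM in WT and between 3.72 and 5.17 in *Npc1*-/-, with a log2 fold change of -3.17 (SE 0.12, limma adjusted p = 0.000398), which fits the genotype labels. *Npc1*-/- replicate 3 stood apart in sex: *Xist*, the transcript of the inactive X chromosome, was at 15.6 TPM there and at most 0.01 in the other 5 mice, while 4 genes of the Y chromosome (*Eif2s3y*, *Ddx3y*, *Kdm5d*, *Uty*) had a TPM of 0 there and of at least 2.44 elsewhere. Values without this mouse are given where a call rests on it. Of 15245 genes tested, 63 fell and 61 rose in *Npc1*-/- (limma adjusted p below 0.05 and a log2 fold change of at least 0.1 in either direction), and the median log2 fold change of all genes was 0.01. The oligodendrocyte label was borne out by its markers, *Sox10* for example lying between 154 and 200.3 scaled TPM over the 6 libraries.

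The mural cell genes were detected in every library and were lower in *Npc1*-/- mice, by 1.62 to 2.31 times in the fit, but only *Notch3* passed the test. That is 1 of 10 genes past the thresholds in the downward direction, beside 0.413% of all genes tested, and 0 of 10 in the upward direction, beside 0.4% of all genes tested (0.813% in either direction). Without *Npc1*-/- replicate 3, the mouse that differed in sex, 6 of 10 were called lower, among 377 of 15362 genes tested. When any of the other 5 mice was left out, 0 of 10 were called lower. In those fits only 1 to 6 genes in all were called lower, of 15107 to 15297 tested. With all mice and the replicate number as a block, 8 of 10 were called lower, among 868 of 15245 genes tested. In the fit reported, without a block, 8 of 10 genes were lower at a looser adjusted p below 0.1, beside 5.13% of all genes. At an unadjusted p below 0.05, 9 of 10 were lower, beside 11.6%. In 9 of 10 genes, all but *Anpep*, each *Npc1*-/- mouse lay below each WT mouse, which held for 14.2% of all genes. The log2 fold change was below 0 for 10 of 10 genes, against 49% of all genes, and -0.7 or lower for 9 of 10, against 3.88%. The median over the 10 genes was -0.87 on the log2 scale. Because each sample is bulk RNA, fewer mural cells in the fraction and less RNA per mural cell cannot be told apart.

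**Figure D1:**
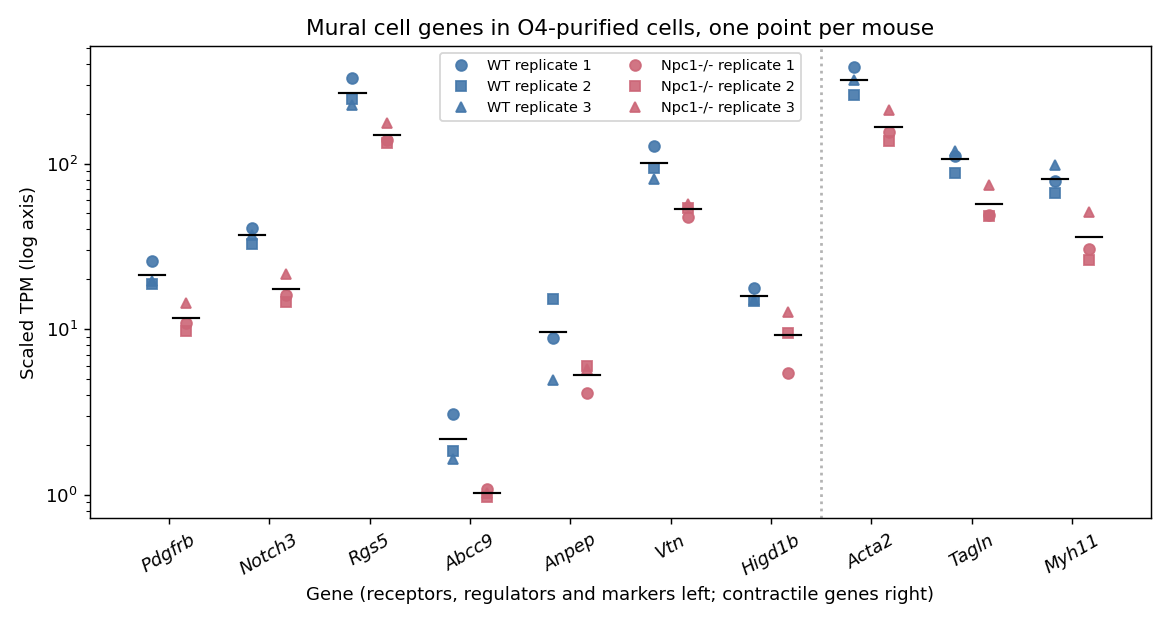
Scaled TPM of the 10 mural cell genes in each mouse, on a log axis, with WT in blue, *Npc1*-/- in red, a symbol per replicate number and a black bar at the mean of 3 mice. For every gene except *Anpep* the 3 *Npc1*-/- points lie below the 3 WT points.

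The receptors come first. *Pdgfrb*, which encodes the receptor for PDGF-BB and lies at chr18:61045150-61085061 on the plus strand (GRCm38, GENCODE M21), was at 25.7, 18.6 and 19.6 scaled TPM in WT replicates 1 to 3. In *Npc1*-/- replicates 1 to 3 it was at 10.9, 9.71 and 14.4. The groups did not overlap, and the mean of the *Npc1*-/- mice was 54.8% of that of WT. The log2 fold change was -0.85 (SE 0.18, 95% confidence interval from -1.26 to -0.43), with a limma adjusted p of 0.0616 that missed the threshold.

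*Notch3*, the Notch receptor of mural cells, lies at chr17:32120820-32166852 on the minus strand. It was at 40.7, 32.5 and 37.1 scaled TPM in the WT mice and at 16.2, 14.6 and 21.5 in the *Npc1*-/- mice. The lowest WT mouse stood well above the highest *Npc1*-/- mouse, and *Notch3* fell by 1.07 on the log2 scale (SE 0.16, 95% confidence interval from -1.44 to -0.70, limma adjusted p = 0.0429). The mean fell from 36.8 ± 4.09 to 17.4 ± 3.62 (SD, n = 3 mice in each group). The call was close to the threshold and depended on 5 of the 6 mice: the adjusted p was 0.0233 without *Npc1*-/- replicate 3 but 0.0681 and 0.175 without *Npc1*-/- replicates 1 and 2, and 0.136, 0.128 and 0.0895 without WT replicates 1, 2 and 3. It was also lost with no filter on low values (adjusted p = 0.104) and with a variance model without trend (adjusted p = 0.0678).

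As *Notch3* was the gene that passed the test, the 250 bases before its RefSeq start (GRCm38.p6, chr17:32166891-32167140, minus strand) are shown, 5′ to 3′, with the GC box GGGCGG on either strand in capitals.
*Notch3* promoter: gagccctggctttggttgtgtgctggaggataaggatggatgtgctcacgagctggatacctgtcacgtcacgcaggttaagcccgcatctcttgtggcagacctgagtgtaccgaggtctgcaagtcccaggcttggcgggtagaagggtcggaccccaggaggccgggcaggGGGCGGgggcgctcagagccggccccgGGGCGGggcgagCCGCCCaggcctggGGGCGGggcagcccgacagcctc
The window held 4 such boxes within the last 76 bases before the start, and 32.7% of 32851 promoter windows of the same length held at least 1. Promoters of *Abcc9* and *Anpep* held the box as well. GTGGGAA, the core of the site of the Notch effector RBPJ, was not found on either strand in any of the 6 members whose promoters were in the RefSeq table, and 5.42% of all windows held it. *Pdgfrb*, *Higd1b*, *Tagln* and *Myh11* had no entry there. These matches are a description of letters, not of binding.

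The regulators and surface markers of pericytes follow. *Rgs5*, which encodes a GTPase-activating protein that dampens G-protein signalling, lies at chr1:169655501-169695813 on the plus strand. Its levels were 329.6, 245 and 226 scaled TPM in WT and 138, 134 and 177 in *Npc1*-/-. The ranges were clear of each other, and the log2 fold change was -0.82 (SE 0.17, limma adjusted p = 0.0621).

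*Abcc9* encodes SUR2, the regulatory subunit of the ATP-sensitive potassium channel of mural cells, and lies at chr6:142587862-142702315 on the minus strand. It was the least abundant of the 10 genes, at 3.07, 1.83 and 1.65 scaled TPM in WT and 1.09, 0.971 and 1.02 in *Npc1*-/-. WT replicate 1 stood apart from the other WT mice, whereas the *Npc1*-/- mice were close together. The log2 fold change was -0.78 (SE 0.22, limma adjusted p = 0.0975). At this level the depth is thin: if all of its reads came from its shortest coding transcript, the smallest value would rest on 32.5 fragments.

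*Anpep* (CD13, a membrane aminopeptidase) lies at chr7:79821803-79861059 on the minus strand. It was at 8.85, 15.1 and 4.93 scaled TPM in WT and at 4.09, 5.98 and 5.75 in *Npc1*-/-. WT replicate 3 lay within the *Npc1*-/- range, so that the groups overlapped. Its log2 fold change of -0.70 had an SE of 0.36 and a 95% confidence interval from -1.54 to 0.15, and did not pass the test (limma adjusted p = 0.311).

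*Vtn*, at chr11:78499091-78502324 on the plus strand, encodes vitronectin, a secreted matrix protein that brain pericytes make. It was at 127.7, 93.5 and 81.3 scaled TPM in WT and at 47.8, 53.6 and 57.3 in *Npc1*-/-, with no overlap. Its log2 fold change was -0.90 (SE 0.17, limma adjusted p = 0.0557). *Higd1b*, a marker of brain pericytes at chr11:102835849-102838040 on the plus strand, was at 17.7, 14.9 and 14.9 scaled TPM in WT and at 5.46, 9.42 and 12.6 in *Npc1*-/-. The WT mice were tight and the *Npc1*-/- mice spread widely, with replicate 3 only slightly under the lowest WT mouse. Its log2 fold change was -0.82 (SE 0.27, limma adjusted p = 0.134).

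The remaining 3 genes encode parts of the contractile apparatus of smooth muscle. *Acta2*, smooth muscle alpha-actin, lies at chr19:34241090-34255590 on the minus strand and was the most abundant of the 10. It was at 381, 261 and 322 scaled TPM in WT and at 155, 136 and 209.5 in *Npc1*-/-. The groups did not overlap, and the log2 fold change was -0.95 (SE 0.20, limma adjusted p = 0.0602). *Tagln* (transgelin, an actin-binding protein) lies at chr9:45929619-45936058 on the minus strand. It was at 112, 87.2 and 119 scaled TPM in WT and at 49.2, 48.2 and 74.5 in *Npc1*-/-, again without overlap. Its log2 fold change was -0.90 (SE 0.20, limma adjusted p = 0.0643).

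*Myh11*, the smooth muscle myosin heavy chain, lies at chr16:14194535-14291372 on the minus strand. It was at 78.7, 66.6 and 97.5 scaled TPM in WT and at 30.3, 26.0 and 51.2 in *Npc1*-/-. It had the largest fold change of the 10 genes, -1.21 on the log2 scale, but also a wide error (SE 0.26, 95% confidence interval from -1.81 to -0.60), and its limma adjusted p of 0.0623 missed the threshold. *Npc1*-/- replicate 3 lay well above the other *Npc1*-/- mice in all 3 contractile genes.

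Contractile genes are known targets of serum response factor, which binds the CArG box, and *Acta2* is a classical case, so the matches upstream of it are shown. No exact CArG box lay in the 250 bases before the start of any of the 6 members in the table, and 1.47% of all windows held one. With up to 1 mismatch in the A/T core, *Acta2* alone of the 6 had matches, 2 in number, and 8.59% of all windows had at least 1. Each is shown in capitals with 10 bases on either side (RefSeq, GRCm38.p6, minus strand, 5′ to 3′), at chr19:34255438-34255467 and chr19:34255388-34255417.
*Acta2* distal match: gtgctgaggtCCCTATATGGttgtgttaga
*Acta2* proximal match: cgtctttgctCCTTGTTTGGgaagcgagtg
The capitals begin 84 and 34 bases before the RefSeq start. GENCODE M21 also has an *Acta2* transcript that begins further upstream, so that both stretches lie in its first exon.

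With 3 mice against 3, a two-sided exact permutation test of a single gene cannot go below p = 0.1. This exact permutation test gave p = 0.1 for each of the 9 genes without overlap and p = 0.3 for *Anpep*.

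**Figure D2:**
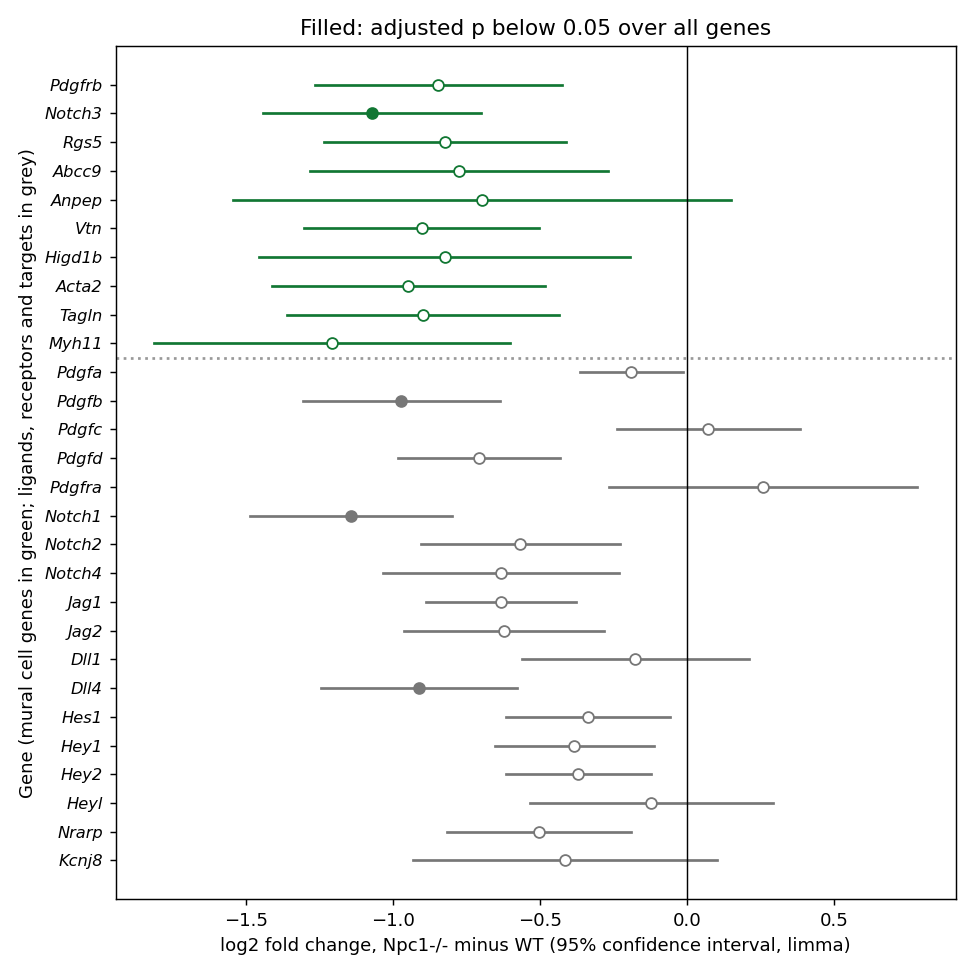
Log2 fold change (*Npc1*-/- minus WT) with 95% confidence interval from limma for the 10 mural cell genes, in green, and for the PDGF, Notch and potassium channel genes that act with them, in grey. Filled points passed the test (*Notch3*, *Pdgfb*, *Notch1* and *Dll4*), and among the mural cell genes only the interval of *Anpep* crosses 0.

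The order of the 10 genes by mean scaled TPM was the same in both genotypes: *Acta2*, *Rgs5*, *Tagln*, *Vtn*, *Myh11*, *Notch3*, *Pdgfrb*, *Higd1b*, *Anpep* and *Abcc9*. In WT their means ran from 321.3 for *Acta2* to 2.18 for *Abcc9*, and in *Npc1*-/- from 167 to 1.03. *Acta2* and *Rgs5* overlapped in range in both genotypes, as did *Tagln* with *Vtn*, *Vtn* with *Myh11*, and *Higd1b* with *Anpep*. *Pdgfrb* and *Higd1b* overlapped in *Npc1*-/- but not in WT. Summed over the 10 genes, the level was between 836 and 1125 scaled TPM in WT and between 439 and 624.5 in *Npc1*-/-. As a share of all deposited TPM, the 10 genes took 0.146%, 0.0925% and 0.0959% in the WT mice and 0.0505%, 0.0375% and 0.0454% in the *Npc1*-/- mice.

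Within a genotype the genes tended to be high and low in the same mice. WT replicate 1 was the highest WT mouse for 7 of the 10 genes, WT replicate 3 for *Tagln* and *Myh11*, and WT replicate 2 for *Anpep*. *Npc1*-/- replicate 3 was the highest *Npc1*-/- mouse for 8 genes, all but *Abcc9* and *Anpep*, and replicate 2 was the lowest for 7. The distance of each gene from the mean profile of the 10 (root mean square over the 6 mice, log2 scale, each gene centred on its own mean) was smallest for *Pdgfrb* and *Rgs5*, at 0.0811 and 0.0813. It was largest for *Anpep*, at 0.475, and next for *Myh11*, at 0.300. Among genes outside the list, the 4 nearest to the mean profile over the 6 mice were *Pakap*, *Itga6*, *Naalad2* and *2900026A02Rik*, with distances from 0.0456 to 0.0640. Their log2 fold changes lay between -0.83 and -0.89.

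**Figure D3:**
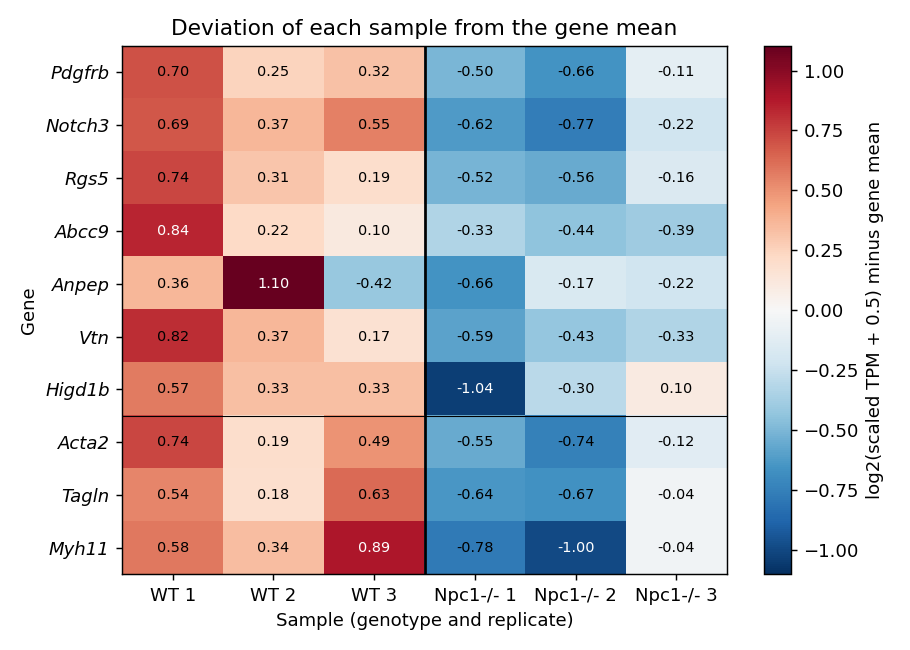
Deviation of each mouse from the gene's mean over the 6 mice, in log2(scaled TPM + 0.5), for the 10 genes (red above the mean, blue below). WT replicate 1 is the highest for 7 genes, *Anpep* peaks in WT replicate 2 at 1.10, and *Higd1b* is at -1.04 in *Npc1*-/- replicate 1 but at 0.10 in replicate 3.

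Ratios of genes within a library do not depend on the scaling between libraries, and 10 of them were computed to see whether the mural cell genes kept their proportions. In 8 of 10 the genotypes overlapped. Smooth muscle relative to pericyte transcripts overlapped: *Acta2* over *Rgs5* was 1.16, 1.06 and 1.43 in WT and 1.13, 1.02 and 1.18 in *Npc1*-/-. *Pdgfrb* relative to the endothelial adhesion molecule gene *Pecam1* was 0.446, 0.299 and 0.390 in WT and 0.402, 0.311 and 0.388 in *Npc1*-/-. The groups did not overlap for *Notch3* over *Pdgfrb*, at 1.59, 1.75 and 1.89 in WT and with a mean of 1.49 ± 0.00669 (SD, n = 3) in *Npc1*-/-. Nor did they for *Abcc9* over *Kcnj8*, the gene of its channel partner, at 0.852, 0.860 and 0.868 in WT and 0.678, 0.589 and 0.536 in *Npc1*-/-. No test was made of these differences, and no share over other pairs of genes was computed to set beside them. *Abcc9* and *Kcnj8* were both low, at no more than 3.07 and 3.61 scaled TPM in any library.

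**Figure D4:**
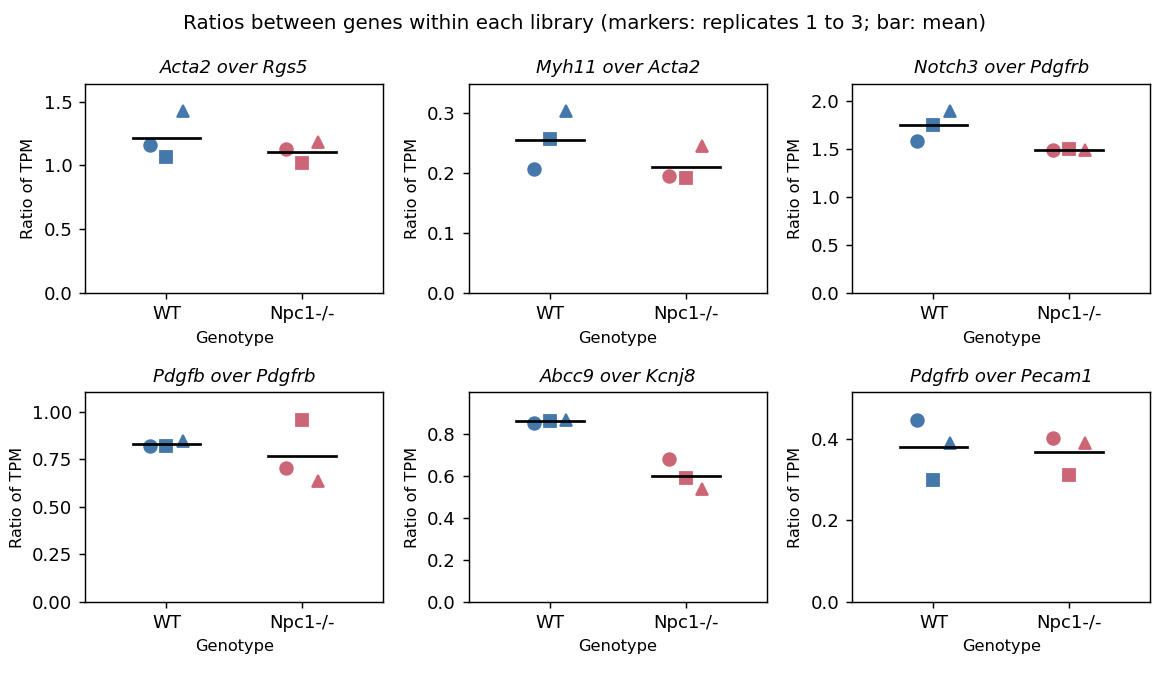
Ratios of TPM between pairs of genes within each library, for 6 of the 10 ratios computed, with WT in blue, *Npc1*-/- in red, a symbol per replicate number and a bar at the mean of 3 mice. *Notch3* over *Pdgfrb* and *Abcc9* over *Kcnj8* do not overlap between genotypes, whereas *Acta2* over *Rgs5*, *Myh11* over *Acta2*, *Pdgfb* over *Pdgfrb* and *Pdgfrb* over *Pecam1* do.

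The ligands and partners of the mural receptors were read from the same fit. Of 5 PDGF genes, 1 fell, beside 0.413% of all genes tested, 0 rose and 4 did not pass the test. The one that fell was *Pdgfb*, whose product is the ligand of PDGFRβ. It was at 21.1, 15.3 and 16.6 scaled TPM in WT and at 7.66, 9.31 and 9.14 in *Npc1*-/-, a log2 fold change of -0.97 (SE 0.14, limma adjusted p = 0.0427). *Pdgfa*, the most abundant ligand gene of the 5, had a log2 fold change of -0.19 (limma adjusted p = 0.192), and *Pdgfra*, the receptor of oligodendrocyte progenitors, had one of 0.26 (limma adjusted p = 0.554). The median of the 5 genes was -0.19.

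Of 14 other Notch pathway genes, 2 fell, beside 0.413% of all genes tested, 0 rose and 12 did not pass the test. *Notch1* was at 19.3, 21.4 and 16.0 scaled TPM in WT and at 9.64, 7.24 and 7.996 in *Npc1*-/-, and fell by 1.14 on the log2 scale (SE 0.15, limma adjusted p = 0.0364). *Dll4*, an endothelial Notch ligand, was at 8.60, 6.81 and 7.49 in WT and at 4.26, 4.02 and 3.21 in *Npc1*-/-, and fell by 0.91 (SE 0.14, limma adjusted p = 0.0446). *Notch4*, the most abundant gene of the list, had a log2 fold change of -0.63 (limma adjusted p = 0.0923). Among the target genes of the pathway none passed the test: the log2 fold change was -0.50 for *Nrarp* (limma adjusted p = 0.0891), -0.38 for *Hey1*, -0.37 for *Hey2*, -0.34 for *Hes1*, -0.12 for *Heyl* and 0.00 for *Hes5*. For the first 4 each *Npc1*-/- mouse lay below each WT mouse, as held for 14.2% of all genes. The median of the 14 genes was -0.44. Like that of *Notch3*, the calls of *Pdgfb*, *Notch1* and *Dll4* were kept when *Npc1*-/- replicate 3 was left out and lost when any other mouse was, with adjusted p between 0.0537 and 0.184 in the fits that lost them. With no filter on low values they were lost as well (adjusted p = 0.104, 0.0970 and 0.113 for *Pdgfb*, *Notch1* and *Dll4*), as they were without trend (0.0648, 0.0562 and 0.0648).

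None of the 2 potassium channel partners tested, the 7 vitronectin receptors and partners or the 11 TGF-β and angiopoietin genes passed the limma test in either direction. At an unadjusted limma p below 0.05, 0, 3 and 10 of them were lower, beside 11.6% of all genes, and 0, 1 and 0 were higher. *Kcnj8*, the pore subunit that pairs with SUR2, was at 3.61, 2.12 and 1.90 scaled TPM in WT and at 1.61, 1.65 and 1.90 in *Npc1*-/-. These ranges overlapped, and its log2 fold change was -0.42 (limma adjusted p = 0.322). Among the vitronectin partners, *Itgb1*, the most abundant, had a log2 fold change of -0.38 (limma adjusted p = 0.0875). *Eng*, a TGF-β co-receptor of endothelium, had a log2 fold change of -0.89 (limma adjusted p = 0.0557), and the median of its list was -0.70.

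Further genes of mural cells, outside the 10, were read from the same fit. Of 13 other pericyte genes none passed the test with limma, and the median log2 fold change was -0.61. At an unadjusted limma p below 0.05, 9 of the 13 were lower, beside 11.6% of all genes. *Atp13a5* had the largest, at 6.89, 3.71 and 5.17 scaled TPM in WT and 2.05, 2.09 and 2.20 in *Npc1*-/- (log2 fold change -1.10, SE 0.20, limma adjusted p = 0.0555). *Mcam*, the most abundant, had a log2 fold change of -0.38 (limma adjusted p = 0.146). Of 17 other smooth muscle genes 1 fell, beside 0.413% of all genes tested, 0 rose, and the median was -0.80. At an unadjusted limma p below 0.05, 13 of the 17 were lower, beside 11.6% of all genes. In 12 each *Npc1*-/- mouse lay below each WT mouse, beside 14.2% of all genes. The gene that fell was *Mylk*, the myosin light chain kinase that starts contraction, at 41.7, 37.8 and 40.0 scaled TPM in WT and 19.4, 17.7 and 25.4 in *Npc1*-/- (log2 fold change -0.93, SE 0.14, limma adjusted p = 0.0431). This call was kept without *Npc1*-/- replicate 3 (adjusted p = 0.0178) and lost without any other mouse (0.0681 to 0.175), with no filter (0.104) and without trend (0.0697). *Myl9* had the largest fold change of the 17 (-0.96, limma adjusted p = 0.0567) and *Tpm1* the highest level (-0.44, limma adjusted p = 0.0623).

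Markers of other cells of the vessel wall and its surroundings were read beside the mural cell genes, and the summed levels of 5 lists did not overlap between genotypes. Of 13 endothelial markers 0 passed the test with limma (12 were lower at an unadjusted p below 0.05, beside 11.6% of all genes). In 12 of them each *Npc1*-/- mouse lay below each WT mouse, beside 14.2% of all genes. The summed level of the 13 was between 1515 and 1637 scaled TPM in WT and between 712 and 1205 in *Npc1*-/-. Of 7 fibroblast markers 0 passed (5 at an unadjusted p below 0.05) and 3 did not overlap, with sums between 80.3 and 122 in WT and between 51.2 and 77.7 in *Npc1*-/-. Of 5 perivascular macrophage markers 3 fell (*Mrc1*, *Cd163* and *Cbr2*), beside 0.413% of all genes tested. All 5 were lower at an unadjusted p below 0.05 and did not overlap, with sums between 16.6 and 28.0 in WT and between 4.63 and 6.45 in *Npc1*-/-. Of 6 microglia markers 1 fell (*Tmem119*). All 6 were lower at an unadjusted p below 0.05 and did not overlap, with sums between 179.9 and 281 in WT and between 83.1 and 153 in *Npc1*-/-. Of 3 ependymal markers tested 1 fell (*Rarres2*), 2 were lower at an unadjusted p below 0.05, and 2 did not overlap. Sums over the 4 listed lay between 23.3 and 36.3 in WT and between 16.2 and 18.0 in *Npc1*-/-. The calls of the 5 markers that fell were each lost in 3 to 5 of the 6 fits that left out a mouse, with adjusted p up to 0.184. With no filter all but *Cd163* were lost (0.0914 to 0.117), and without trend *Tmem119* and *Rarres2* were (0.0678 and 0.0587). The median log2 fold change was -1.48 for the perivascular macrophage and -1.08 for the microglia markers, both further from 0 than the -0.87 of the mural cell genes. It was -0.70 for the endothelial, -0.53 for the fibroblast and -0.77 for the ependymal markers.

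The summed levels of 3 other kinds of marker overlapped between genotypes: astrocyte (362 to 443 in WT and 277 to 478 in *Npc1*-/-), neuron (151 to 181 and 163 to 207) and red blood cell (4060 to 9514 and 1763 to 6957). None of these lists had a gene past the limma test. At an unadjusted limma p below 0.05, 3, 1 and 0 of their genes were lower, beside 11.6% of all genes, and 1, 1 and 0 were higher. Of the 6 astrocyte markers 5 were nevertheless lower in each *Npc1*-/- mouse than in each WT mouse, beside 14.2% of all genes. *Gfap*, the most abundant, was higher in each, with a log2 fold change of 1.01 (limma adjusted p = 0.108). The median of the 6 was -0.58. The 8 oligodendrocyte lineage markers had a median log2 fold change of 0.19 and 0 passed the test, with 0 lower and 1 higher at an unadjusted p below 0.05. Their summed level also overlapped, at 157034, 214728 and 216638 scaled TPM in WT replicates 1 to 3 and 198228, 305201 and 378110 in *Npc1*-/- replicates 1 to 3. No marker of any of these lists was at 0 in all libraries. The part of these other cells in the values of the mural cell genes was not tested.

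**Figure D5:**
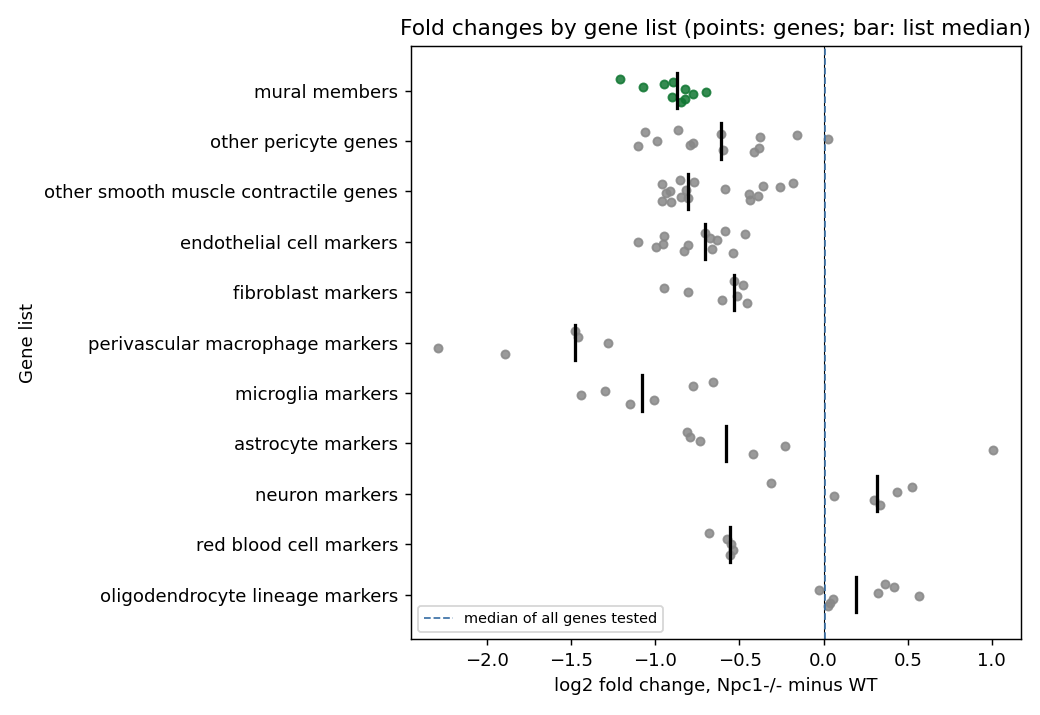
Log2 fold change (*Npc1*-/- minus WT) of each gene tested, by list, with the list median as a black bar, the 10 mural cell genes in green on the top line and the median of all genes tested as a dashed line. The mural cell genes lie between -1.21 and -0.70, with a median of -0.87.

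Some of the 10 genes share sequence or position with others. *Tagln* overlaps *Pcsk7* on the other strand, which was at 8.68 to 8.92 scaled TPM in WT and 7.55 to 8.09 in *Npc1*-/-, and the antisense gene *Gm48529*, at 1.27 to 1.74 in WT and 0.499 to 0.950 in *Npc1*-/-. *Notch3* and *Abcc9* overlap antisense genes that stayed at or under 0.289 scaled TPM and at 0, *Anpep* overlaps *Gm44974*, at or under 0.0695, and whether strand was used in counting is not stated in the sources used here. *Acta2* has close paralogs, of which *Actg2* was at 2.18 to 4.25 scaled TPM in WT and 1.63 to 3.59 in *Npc1*-/-, and *Acta1* and *Actc1* were at or under 0.510. Each of these is far below the gene it overlaps or resembles.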

How the data were processed

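O4-positive cells from 3 WT and 3 *Npc1*-/- mice gave 1 poly(A) RNA library each. The authors deposited TPM, with 2 decimals, and FPKM per gene; FPKM served as an alternative. The methods name bbduk, STAR, featureCounts and DESeq2 on GRCm38, and the submitters' processing notes list cutadapt 2.3, FastQC 0.11.8, STAR 2.7.8a, RSEM 1.3.3 and MultiQC 1.7. Which of these made the TPM values is not given in the sources used here. TPM is not a count, so the count model was replaced by limma.

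TPM was divided by median-of-ratios size factors (18690 genes), 0.5 was added and log2 taken. Fold changes are on that scale and understate changes of low genes. The 15245 genes whose TPM averaged 0.5 or more entered a limma fit (version 3.58.1, R 4.3.3), moderated with a mean-variance trend, in which genotype was the sole term, with two-sided p-values adjusted by Benjamini-Hochberg over all of them. A gene was called when its adjusted p was under 0.05 and its log2 fold change was 0.1 or more in size. Depth was read from FPKM steps, of which 82.8% to 87.5% lay within 0.15 of a whole fragment (30% by chance). Genes with several transcripts did not give back whole reads, and a count test was not run. On simulated data for 15256 genes, 82% of 200 genes changed by 1.5 (log2) were recovered in the comparison of *Npc1*-/- with WT, and 8 unchanged genes were called. The noise was drawn for each gene on its own, without effects shared within a mouse. As the mural cell genes changed by less (-1.21 to -0.70), the share recovered does not apply to them. Positions are from GENCODE M21 and promoters from RefSeq.

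The 10 genes and all lists were chosen with earlier results of these data known. Genes named are the 10, *Npc1*, in each related list those past the thresholds, the most abundant and the one with the largest fold change, and the 5 nearest profiles, except items that are not reported here; *Pdgfra*, the Notch target genes, *Gfap*, *Sox10*, *Pecam1*, overlapping genes and paralogs were named outside that rule, after their values were seen. Alternatives were FPKM, quantile normalization, TPM without size factors, pseudocounts of 0.1 and 1, filters of none and of a mean TPM of 5, no trend, robust estimation, the replicate number as a block, and each mouse left out.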

Additional observations from a re-analysis of the deposited data

How the results depend on the processing

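The log2 fold change was below 0 for all 10 mural cell genes in each of the 10 alternatives and 6 fits with a mouse left out in which the gene was tested; *Abcc9* was not tested at a mean TPM of at least 5. The number of these genes past the thresholds, all lower, is given here with the calls lower among all genes tested in parentheses. It was 1 with all 6 mice (63 of 15245) and 1 with FPKM (90 of 14373). After division by size factors, FPKM differed from TPM by the same factor in every library, apart from rounding. That fit therefore changed only the weight of the pseudocount and the filter, and is not a separate check. With pseudocounts of 0.1 and 1 and with robust estimation it was also 1 (64, 66 and 60 of 15245). It was 8 with TPM as deposited (870 of 15245). There the median of all genes moved to -0.33, and the 10 genes lay 0.72 to 1.25 below it on the log2 scale. At a mean TPM of at least 5 it was 6 of 9 tested (272 of 9150), and with quantile normalization 2 (144 of 15245). It was 0 with no filter (7 of 28469) and 0 without trend (16 of 15245). With a mouse left out it ranged from 0 to 6 (1 to 377), the 6 arising without *Npc1*-/- replicate 3.

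Over all genes, calls were 924 (870 lower) with TPM as deposited, against 124 (63 lower, 61 higher) in the fit reported. They were 447 (175 higher, 272 lower) at a mean TPM of at least 5, 240 (96 higher, 144 lower) with quantile normalization, 21 (14 higher, 7 lower) with no filter and 42 (26 higher, 16 lower) without trend. With a mouse left out they ranged from 4 to 486, from 3 to 109 higher and from 1 to 377 lower. Why the calls differed between these fits was not tested.

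With the replicate number as a block, 8 mural cell genes, all lower, and 2011 of all 15245 genes tested (1143 higher, 868 lower) were called. The correlation of the deviations of same-numbered mice was 0.414, 0.0602 and 0.326, and 6 of 6 mice correlated best with their own number. Whether mice with the same number shared a litter or a preparation is not stated in the sources used here. The fit reported has no block because no pairing is stated, although the correlations leave a shared effect of the number possible. The number of calls depends on that choice.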

Other observations

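*Npc1*-/- replicate 3, the highest *Npc1*-/- mouse for 8 of the 10 mural cell genes, also had the highest summed level of endothelial markers, at 1205 scaled TPM against 712 and 1023 in replicates 1 and 2. Its microglia markers summed to 153, against 83.1 and 115. Its perivascular macrophage markers summed to 6.45, against 4.63 and 5.85. It was not the highest for the fibroblast markers, which summed to 77.7, 51.2 and 66.9 in replicates 1 to 3, nor for the ependymal markers, at 16.2, 18.0 and 16.2.

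Some values of genes that act with mural cells stood out and were chosen after they were seen. *Itgb3*, a vitronectin receptor subunit, was higher in each *Npc1*-/- mouse, at 2.93, 3.08 and 3.00 scaled TPM in WT and 4.31, 4.55 and 4.25 in *Npc1*-/- (log2 fold change 0.47, SE 0.10, limma adjusted p = 0.0654). *Tgfb3* was at 23.8 scaled TPM in *Npc1*-/- replicate 3 and between 7.36 and 12.3 in the other 5 mice. *Cspg4* (NG2), shared by pericytes and oligodendrocyte progenitors, was at 21.6, 19.8 and 20.6 scaled TPM in WT and 18.4, 20.4 and 16.6 in *Npc1*-/- (log2 fold change -0.16, limma adjusted p = 0.407).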
